A study of Mus musculus with 4 samples.

Results

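The 4 Hox gene clusters of the mouse were examined in a map of CTCF binding in adult cerebral cortex. The members were the protein-coding genes whose symbol is Hoxa, Hoxb, Hoxc or Hoxd followed by a number, 39 of 21938 protein-coding genes, and the CTCF summits (the position of highest signal in a peak) between the outermost genes of each cluster and within 100 kb on either side. Those windows held 35 of the 44672 summits found reproducible between both pools (the conservative list), 38 of 50827 in the list from the pooled reads (the optimal list), 49 of 82131 in the list of pool I alone and 38 of 52658 in that of pool J alone. Summits of different lists within 100 bp of each other were taken as 1 site, which gave 50 sites, 28 of them inside a cluster and 22 on the flanks.

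CTCF chromatin immunoprecipitation and sequencing was done on tissue of the left cerebral cortex from female B6CASTF1/J mice aged 2 months, which are first-generation hybrids by their strain name. There were 4 libraries, with 2 technical replicates from each of 2 pools of 4 cortex biosamples, and pool I and pool J were the biological replicates. All animals shared the same strain, sex, age and antibody, with no treatment and no comparison group, so the comparisons are between positions, between lists and between sequences. The lists merge the libraries of a pool and do not separate the parental alleles or the cell types of the tissue, and fewer bound cells and less binding per cell cannot be told apart. CTCF peaks carry no expression, so the tissue label could not be checked against marker genes. The lists give no read counts, so the depth is unknown. With 2 pools no test over samples was made, and every difference below is described without a p-value.

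Hox genes encode homeodomain transcription factors that give cells their position along the head-to-tail axis. Within a cluster all genes are transcribed in the same direction, and their order along the chromosome, from Hox1 to Hox13, follows the order in which they are switched on in time and from the hindbrain to the tail. The cortex lies in front of the domain in which Hox genes act, and in such tissue the clusters are typically held silent by Polycomb proteins. CTCF is a zinc finger protein that halts loop extrusion by cohesin in a manner that depends on the strand of its motif, and at Hox clusters it is known for sites that mark the border between active and Polycomb-silenced genes in the spinal cord.

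The Hoxa cluster lay on the minus strand at chr6:52155590-52260880 with 11 genes, and the others on the plus strand: Hoxb at chr11:96194316-96368256 with 10 genes, Hoxc at chr15:102921103-103036852 with 9 and Hoxd at chr2:74668310-74765142 with 9 (mm10, GENCODE M21). Sites were placed between the coding spans of neighbouring genes, because the annotated spans of some Hox genes overlap others through long transcripts. Each site is named below by the Hox genes next to it, from the Hox13 end to the Hox1 end. A motif was counted as on the Hox strand when its G-rich consensus, gtggCCACcAGGgGGCgcta with the 10 positions of at least 1 bit in capitals, read in the direction of Hox transcription.

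The sequences that carry the main patterns are given first, from GRCm38, 5′ to 3′ on the strand of the motif, with the 20 bases of the motif match in capitals. The first set holds the strongest summit inside each cluster, which lay just after Hox9 in all 4 clusters, on the Hox strand each time.
Hoxa9 to Hoxa7, chr6:52221790-52221839, minus strand: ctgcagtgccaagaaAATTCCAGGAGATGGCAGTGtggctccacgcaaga
Hoxb9 to Hoxb8, chr11:96278929-96278978, plus strand: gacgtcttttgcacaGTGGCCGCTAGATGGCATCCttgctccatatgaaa
Hoxc9 to Hoxc8, chr15:102987574-102987623, plus strand: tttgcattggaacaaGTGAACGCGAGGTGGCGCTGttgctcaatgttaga
Hoxd9 to Hoxd8, chr2:74702376-74702425, plus strand: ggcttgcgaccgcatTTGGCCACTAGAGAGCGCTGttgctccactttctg

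The second set holds sites upstream of the start of a Hox gene, the 3 genes of paralogue number 5 and Hoxc10, again all on the Hox strand.
Hoxa5, chr6:52204640-52204689, minus strand: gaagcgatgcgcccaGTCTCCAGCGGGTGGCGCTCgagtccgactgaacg
Hoxb5, chr11:96303226-96303275, plus strand: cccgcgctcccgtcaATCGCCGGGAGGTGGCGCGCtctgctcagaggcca
Hoxc5, chr15:103013683-103013732, plus strand: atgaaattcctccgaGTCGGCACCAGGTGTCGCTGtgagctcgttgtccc
Hoxc10, chr15:102966553-102966602, plus strand: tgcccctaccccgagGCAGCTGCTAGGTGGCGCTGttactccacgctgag

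The third set holds the 5 sites on the Hox13 side of Hox9 whose motif read against the Hox genes.
Hoxa13 to Hoxa11, chr6:52257102-52257151, plus strand: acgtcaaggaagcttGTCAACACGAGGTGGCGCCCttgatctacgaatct
Hoxb13 to Hoxb9, site 1, chr11:96198746-96198795, minus strand: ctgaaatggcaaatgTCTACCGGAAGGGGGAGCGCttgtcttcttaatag
Hoxb13 to Hoxb9, site 2, chr11:96235087-96235136, minus strand: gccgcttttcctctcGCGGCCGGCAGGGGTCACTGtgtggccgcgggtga
Hoxb13 to Hoxb9, site 4, chr11:96261734-96261783, minus strand: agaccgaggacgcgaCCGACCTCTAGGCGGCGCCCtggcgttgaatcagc
Hoxd13 to Hoxd12, chr2:74673159-74673208, minus strand: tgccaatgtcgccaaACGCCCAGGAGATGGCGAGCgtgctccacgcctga

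CTCF summits were denser inside the 4 clusters than over the genome, while the flanks differed from cluster to cluster. The conservative list held 22 summits in the 491.8 kb of the clusters, 44.7 per Mb, beside 16.9 per Mb over the genome. The 800 kb of flanks held 13 summits, or 16.25 per Mb. The flanks of Hoxb were above the genome, with 25 per Mb, and those of Hoxa, Hoxc and Hoxd below it, with 10, 15 and 15 per Mb. With flanks of 200 kb the density over all clusters was 23.1 per Mb, above that of the genome. Each cluster was above the genome's density, with 6 summits in Hoxa (57.0 per Mb), 8 in Hoxb (46.0 per Mb), 4 in Hoxc (34.6 per Mb) and 4 in Hoxd (41.3 per Mb). The optimal list gave 48.8 per Mb inside the clusters against 19.2 over the genome, pool I 56.9 against 31.0 and pool J 48.8 against 19.9. In pool I the Hoxb flanks, at 55 per Mb, were close to the Hoxb cluster itself, at 57.5 per Mb. The Hoxa count was 6 and the Hoxc count 4 in all 4 lists, whereas Hoxd ranged from 4 to 8, the highest in pool I. 

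**Figure D1:**
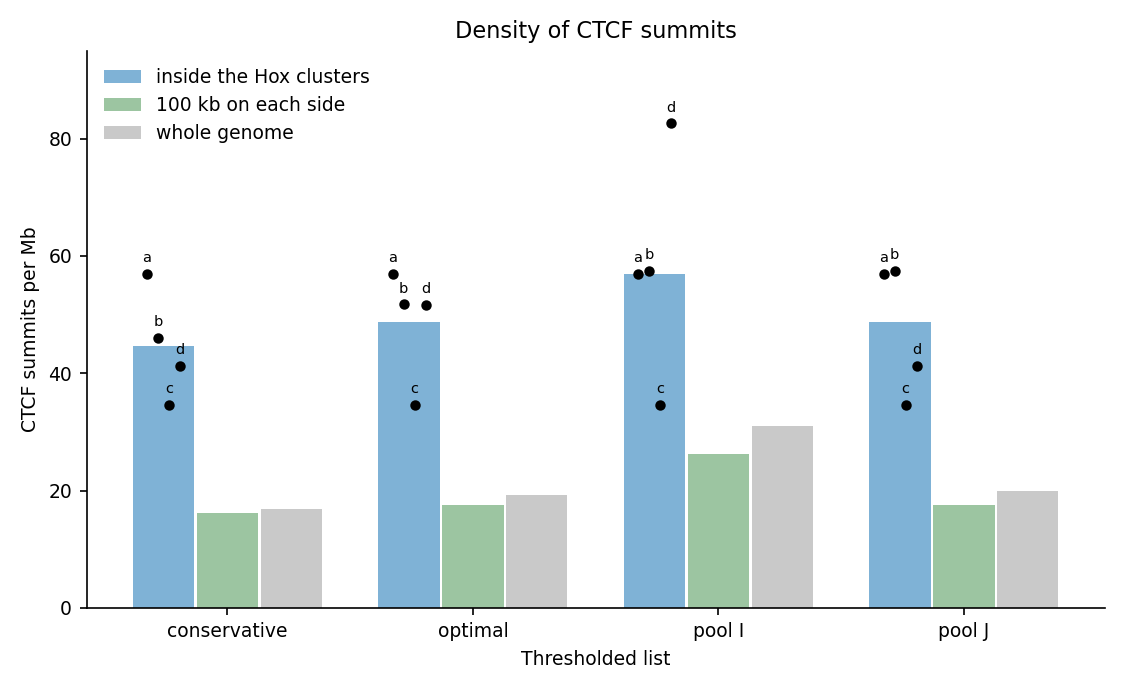
CTCF summits per Mb (vertical axis) in each of the 4 thresholded lists (horizontal axis), inside the Hox clusters, in 100 kb on each side and over the whole genome. Bars give the value over all 4 clusters, and the points marked a, b, c and d give each cluster. All 4 clusters lie above the genome's bar in every list, and the bar of the flanks, taken over all 4 clusters, lies below it.

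The summits inside the clusters all lay between the Hox13 end and the start codon of Hox4. All 22 conservative summits lay in the 366 kb between the Hox13 end and the start codon of Hox4, or 60.1 per Mb. None lay in the 125.6 kb from that start codon to the Hox1 end, which holds the 12 genes of paralogue numbers 1 to 4, the genes expressed furthest forward in the embryo. The optimal, pool I and pool J lists held 24, 28 and 24 summits in the first part and 0 in the second. This boundary was chosen after the positions had been seen, so it describes these sites and tests nothing. The second part was 36.1 kb in Hoxa, 49.5 kb in Hoxb and 37.9 kb in Hoxd. In Hoxc it was only 2.13 kb with 1 gene, too short for its lack of summits to say much. Hoxc was instead empty at its Hox13 end, where the first conservative site lay 45.5 kb from the Hoxc13 start. Before the reproducibility threshold, the ranked list of pool I held 3 summits in the second part, all in Hoxb, and that of pool J held 1 in Hoxb and 1 in Hoxd.

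**Figure D2:**
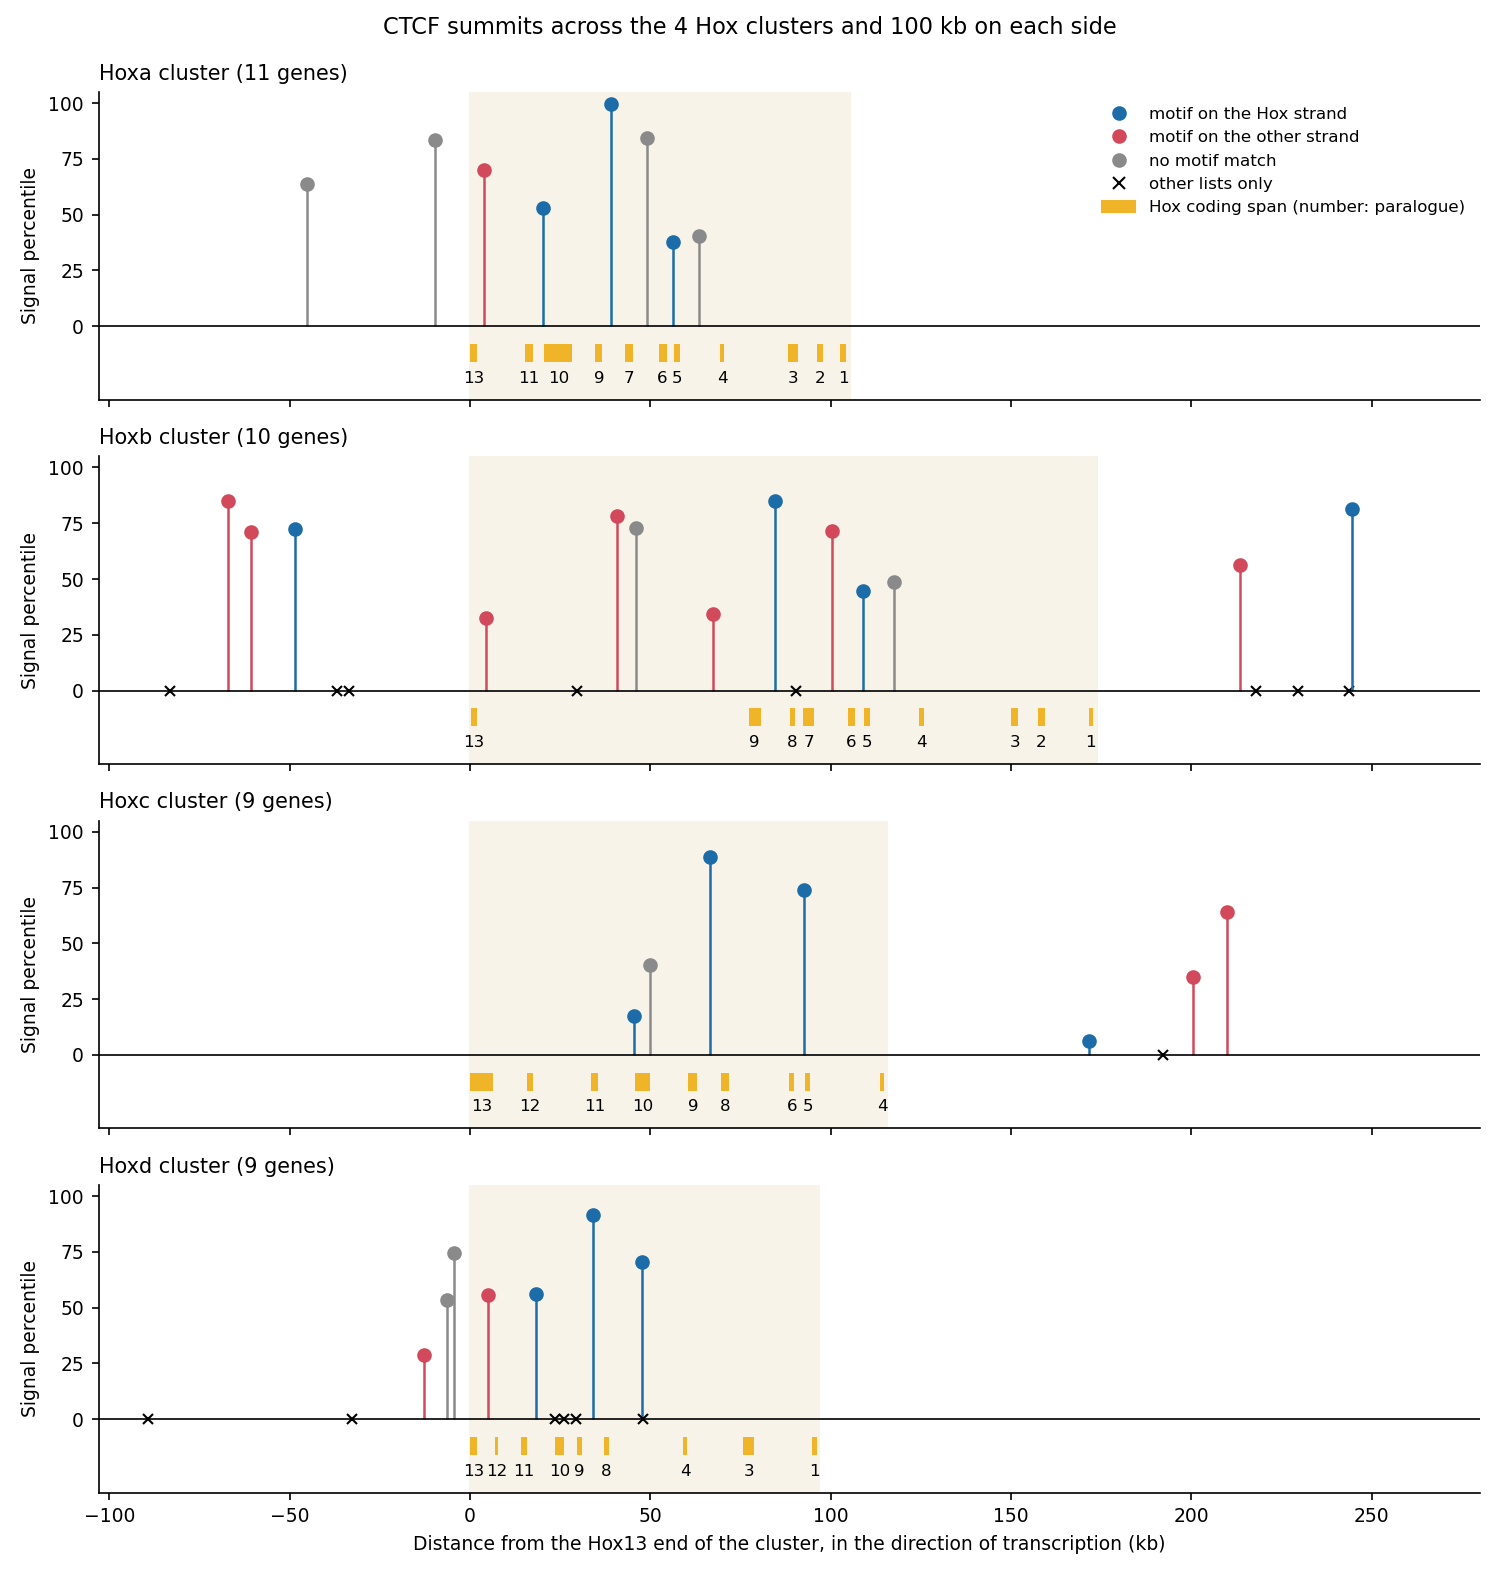
Position of each site (horizontal axis, kb from the Hox13 end in the direction of transcription) and its signal percentile in the conservative list (vertical axis) in the 4 clusters (shaded) and 100 kb on each side, coloured by the strand of the motif. Crosses at the baseline are sites found only in the other lists, and boxes are the coding spans of the Hox genes. The tallest stem inside every cluster stands just after Hox9, and no stem stands between Hox4 and the Hox1 end.

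The empty stretch ran on beyond the clusters on the Hox1 side. In Hoxa the last conservative site, between Hoxa5 and Hoxa4, was 161 kb from the next one, a distance longer than 92.7% of those between neighbouring conservative summits on the same chromosome. In Hoxd the distance from the site between Hoxd8 and Hoxd4 to the next was 249 kb, longer than 96.1%. In Hoxb and Hoxc the distance from the last site inside the cluster to the next was 96.2 and 79.0 kb, longer than 85.9% and 82.3%. Much of it lay inside the cluster, as the next sites were 39.7 and 55.8 kb outside. The median distance over all neighbours was 21.8 kb. Pooled over the clusters, the sequence of the empty part also held fewer motif matches, 5 in 125.6 kb (0.398 per 10 kb) beside 42 in 366 kb (1.15 per 10 kb). In Hoxa it held 0 in 36.1 kb, in Hoxb 2 in 49.5 kb, in Hoxc 1 in 2.13 kb and in Hoxd 2 in 37.9 kb. Hoxc went the other way, with 4.69 per 10 kb in this short part beside 0.880 in the rest of the cluster. The part of motif matches in the absence of summits was not tested.

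Gene by gene, the distance to CTCF restated this division. It was taken from the same summits and split at the same boundary, so longer distances at numbers 1 to 4 are largely built in. From the start site nearest the coding sequence to the nearest conservative summit, the 27 genes of paralogue numbers 5 to 13 had a median distance of 4.12 kb, and 19 of them were within 5 kb. The 12 genes of numbers 1 to 4 had a median of 27.9 kb, and 1 was within 5 kb. That gene was Hoxa3, whose only annotated start lies far upstream of its coding sequence, 1385 bp from the site between Hoxa7 and Hoxa6. Hoxd1 was the farthest of all, at 47.1 kb. The division was narrower when any annotated start was allowed, because some genes have further starts. Hoxd3 then lay 4002 bp from a conservative summit, Hoxc4 5240 bp, Hoxd4 6049 bp and Hoxb3 11584 bp. Hoxb6, Hoxb8 and Hoxd8, of numbers 5 to 13, also came nearer, and no other gene moved. Over all Hox genes 20 of 39 (51.3%) were within 5 kb, beside 36.1% of protein-coding genes. An exception at the other end was Hoxc, where Hoxc13 and Hoxc12 lay 45.5 and 29.8 kb from the nearest conservative summit.

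**Figure D3:**
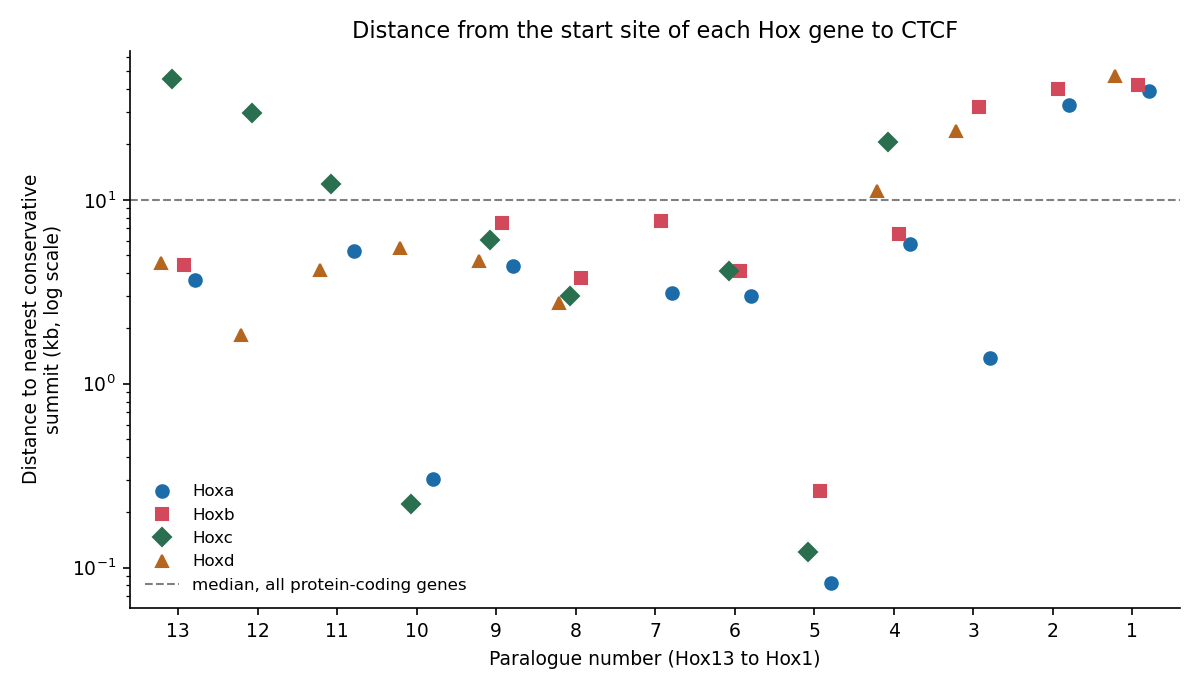
Distance from the start site nearest the coding sequence of each Hox gene to the nearest conservative CTCF summit (vertical axis, kb, log scale) by paralogue number (horizontal axis, Hox13 to Hox1). There is 1 point per gene, with the 4 clusters in different symbols. The dashed line is the median over all protein-coding genes. Hoxa5, Hoxb5 and Hoxc5 lie lowest, with Hoxa10 and Hoxc10, and apart from Hoxa3 the points of numbers 1 to 3 lie above the line.

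Between neighbouring Hox genes, 18 of 35 gaps (51.4%) held a conservative summit, beside 41.7% of all gaps between protein-coding genes that were no longer than the longest Hox gap. In the optimal list the shares were 54.3% and 44.4%, in pool J 54.3% and 45.0% and in pool I 57.1% and 54.4%, so in pool I the Hox gaps were close to the background. The Hox gaps were shorter, with a median of 8.11 kb against 13.4 kb. Of the remaining summits, 1 lay within a coding span, that of Hoxc10. Only the gap from Hoxb13 to Hoxb9 held more than 1, with 4 in its 75.3 kb, the longest gap of the clusters. Gaps measured between start sites held a summit in 21 of 35 cases, but the distant start of Hoxa3 places 3 sites of the Hox5 to Hox7 region in 2 of those gaps.

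The strongest binding in every cluster lay between Hox9 and the next gene towards Hox1. The Hox9 genes are expressed from the trunk backwards. The summit between Hoxa9 and Hoxa7, at 52221828, had a signal of 666, rank 180 of 44672, which is above 99.6% of conservative peaks. Its value was 395 in pool I and 278 in pool J. It stood 2419 bp after the end of the Hoxa9 coding sequence and 3811 bp before that of Hoxa7, in no transcript of the basic annotation. The full annotated span of the Hoxa7 gene, 52214491 to 52221854, did include it, close to its upstream end.

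In Hoxd the strongest site, at 74702395 between Hoxd9 and Hoxd8, had a signal of 559 (percentile 91.7), with 352 in pool I and 215 in pool J. In Hoxc the strongest, at 102987593 between Hoxc9 and Hoxc8, had 540 (percentile 88.9), with 325 and 218. In Hoxb the strongest, at 96278958 between Hoxb9 and Hoxb8, had 515 (percentile 85.1), with 332 and 187. These 3 stood 2977, 3457 and 4102 bp after the end of the Hox9 coding sequence, so each of the 4 sites was between 2419 and 4102 bp downstream of Hox9. The site was the strongest inside its cluster in 4 of 4 clusters in the conservative, optimal, pool I and pool J lists alike. The conservative and optimal lists carried the same signal values at these sites, so they are not separate readings. This gap was singled out after the signals had been seen, so the pattern is described and not tested. The next strongest sites were Hoxa7 to Hoxa6 in Hoxa, the second Hoxb13 to Hoxb9 site, Hoxc6 to Hoxc5 and Hoxd8 to Hoxd4, the same in every list.

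The sequences of these 4 sites shared some bases beyond the motif itself. Over the printed 50 bases, pairs among them were identical at 42 to 54% of positions (median 47%), beside a median of 40% (28 to 62%) over the 136 pairs of cluster sites with a motif. Those 50 bases include the motif. In the printed bases outside it the pairs among the 4 were identical at 36.7 to 53.3%, and the same was not counted over all pairs. At 11 positions all 4 carried the same base, 5 inside the motif and 6 after it. The bases GCTCCA, starting at the third base after the motif match, were present exactly at the Hoxa9, Hoxb9 and Hoxd9 sites and at the Hoxd13 to Hoxd12 site. With at most 1 mismatch they were also found at the Hoxc9 and Hoxc10 sites, 6 of the 17 cluster sites with a motif (35.3%). Over all conservative summits with a motif, 0.252% had the exact word at that place and 2.02% had it with at most 1 mismatch. The word was noticed in the aligned sites and searched on the strand of the motif only. It describes these sites only, and since the clusters arose by duplication their sites are not independent of each other. Over 200 bases around the motif, the motif excluded, sites in overlapping paralogue gaps of different clusters were identical at a median of 27.2%, beside 26.1% for other pairs of clusters.

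At promoters CTCF was found at genes of paralogue numbers 5 and 10. A conservative summit lay within 1000 bp of a start site of the basic annotation for 5 of 39 genes (12.8%), beside 20.8% of protein-coding genes. Hoxa5, Hoxb5 and Hoxc5, the 3 genes of that number in the mouse, had a summit 83, 261 and 121 bp from their start, on the upstream side. Hoxa5 and its paralogues pattern the neck and upper trunk. The Hoxa5 peak, at 52204670, had a signal of 196 (percentile 37.8), with 134 in pool I and 59.8 in pool J. The Hoxb5 peak, at 96303251, had 234 (percentile 44.6), with 165 and 66.8. The Hoxc5 peak, at 103013694, was the strongest of the promoter peaks, with 441 (percentile 73.9), 277 in pool I and 165 in pool J.

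Hoxa10 and Hoxc10, genes of the lumbar region and the limb, had their summits 304 and 222 bp from the start. The Hoxa10 peak, at 52240550 in its untranslated leader, had a signal of 289 (percentile 52.9), with 206 in pool I and 84.6 in pool J. The Hoxc10 peak, at 102966574 and upstream, was the weakest inside the clusters, with 120 (percentile 17.6), 84.5 in pool I and 32.8 in pool J. All 5 promoter sites had a motif on the Hox strand. In the RefSeq promoter table (GRCm38.p6, 250 bases before to 50 after a start), 22 of the Hox genes were listed, with 24 promoters. Hoxb5, Hoxc5 and Hoxc10 were not listed, and the Hoxa10 motif lay outside the promoter windows. A match on either strand was present in 1 of the 24 promoters, that of Hoxa5, beside 5.71% of 32851 promoters. This share thus leaves out most of the promoter sites described here. The promoter peaks had a median percentile of 44.6, and the 17 other conservative sites inside the clusters one of 70.5.

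The remaining Hoxa sites flanked the genes from Hoxa13 to Hoxa4. The site between Hoxa13 and Hoxa11, at 52257118 in an exon of the long noncoding RNA gene 9530018H14Rik, had a signal of 413 (percentile 69.8), with 261 in pool I and 157 in pool J. Its motif was the only one of Hoxa on the other strand. Between Hoxa7 and Hoxa6, at 52211730, the signal was 512 (percentile 84.6), with 349 in pool I and 168 in pool J. Between Hoxa5 and Hoxa4, at 52197467, it was 210 (percentile 40.6), with 153 and 55.8. Neither of these last sites had a motif match.

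In Hoxb, 4 sites lay between Hoxb13, the gene of the tail, and Hoxb9. The first, at 96198753, had a signal of 172 (percentile 32.6), with 129 in pool I and 42.4 in pool J. The second, at 96235110, had 472 (percentile 78.5), with 305 and 172. The third, at 96240429, was only a little weaker at 436 (percentile 73.1), with 280 and 157, and had no motif match. The fourth, at 96261763 in an exon of the noncoding gene Gm53, had 178 (percentile 34.1), with 128 and 45.4. The inner pair was stronger than the outer pair in both pools.

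Further towards Hox1, the site between Hoxb7 and Hoxb6, at 96294702 in an intron of Hoxb6, had a signal of 425 (percentile 71.5), with 274 in pool I and 147 in pool J. Among the conservative sites inside the clusters, it held the only motif on the Hox1 side of Hox9 that read against the Hox genes. The last site of Hoxb, between Hoxb5 and Hoxb4 at 96311742, had 260 (percentile 48.8), with 180 and 79.5 and no motif match. No conservative site lay between Hoxb8 and Hoxb7.

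In Hoxc a site lay inside a coding exon of Hoxc10, at 102970952, with a signal of 209 (percentile 40.4), 145 in pool I and 65.7 in pool J, and no motif match. In Hoxd the site between Hoxd13, a gene of the digits and genital tubercle, and Hoxd12, at 74673163, had 310 (percentile 55.8), with 220 and 93.4. The site between Hoxd11 and Hoxd10, at 74686483 in an intron of Hoxd11 or of the overlapping gene Gm28309, had 313 (percentile 56.2), with 217 and 97.9. These 2 Hoxd sites were close in signal in both pools. The site between Hoxd8 and Hoxd4, at 74715929 in an exon of the noncoding gene Hoxd3os1, had 417 (percentile 70.5), with 284 in pool I and 133 in pool J.

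All 22 conservative sites inside the clusters were present in all 4 lists. The conservative list holds peaks shared by both pools, so this is largely built in, and the share over all conservative peaks was not counted. The median percentile of the 22 sites in the conservative list was 63.0 (17.6 to 99.6), with 14 of 22 above the list's median. Pool I had the higher signal at each of these sites. On the log2 scale, pool I over pool J had a median of 1.12 (SD 0.31, 0.51 to 1.60), beside 1.09 (SD 0.39) over all 44672 conservative peaks, so the Hox sites differed between the pools by about as much as the other peaks did. The lowest ratio, 0.51, was at the site after Hoxa9 and the highest, 1.60, at the first Hoxb13 to Hoxb9 site. The sites with the 3 lowest values were those after Hoxa9, Hoxc9 and Hoxd9, and the 4 with the highest had conservative signals of 210 or less. Signal values are in a unit that was not stated, so the ratio has no reading as an amount of binding.

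**Figure D4:**
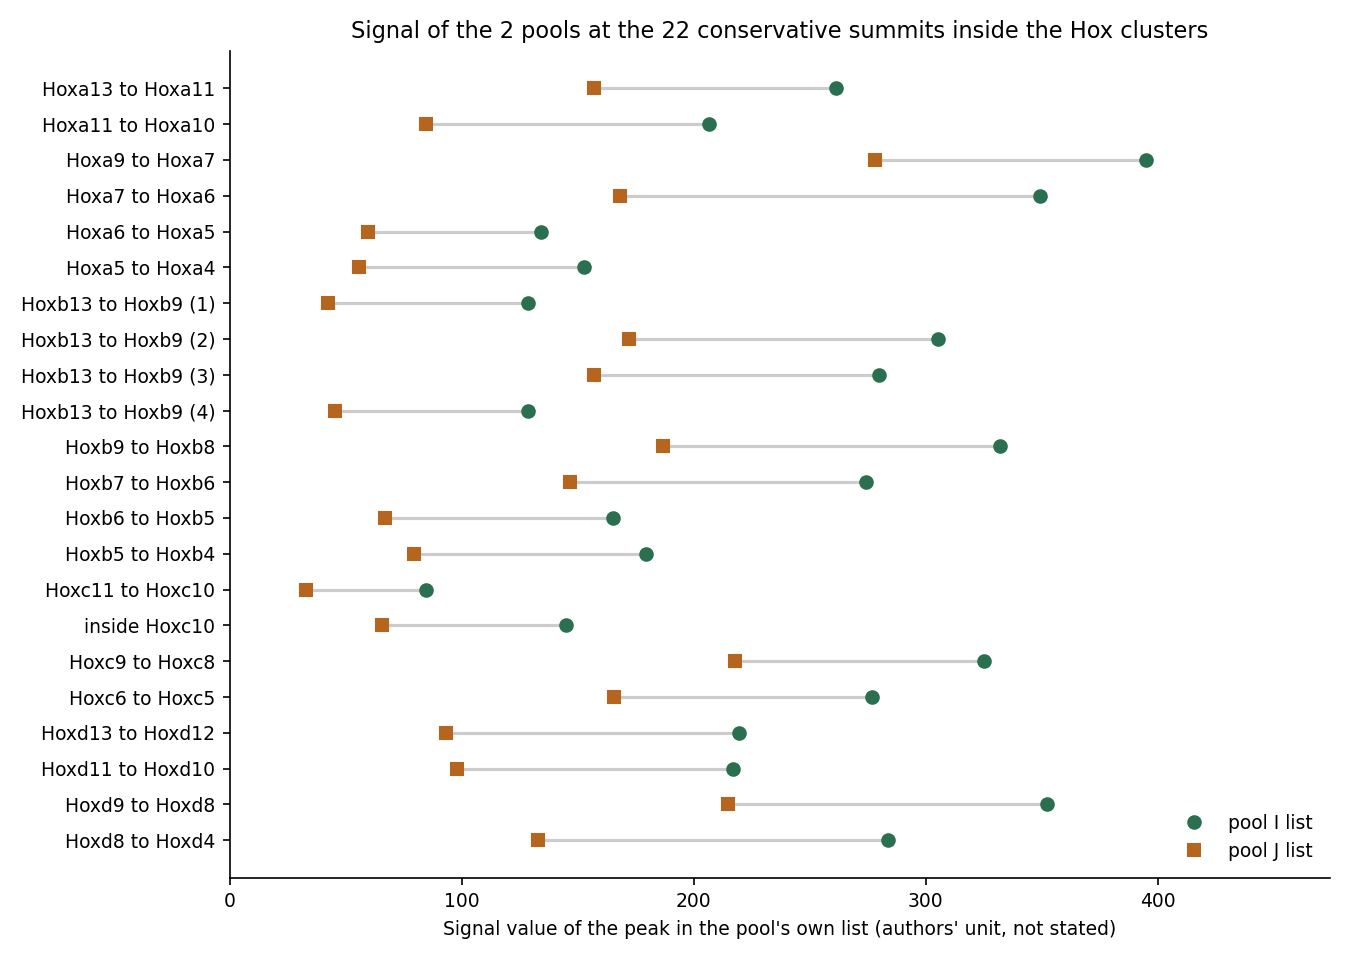
Signal value (horizontal axis, the authors' unit, not stated) in the lists of pool I (circles) and pool J (squares) at each of the 22 conservative summits inside the clusters (vertical axis, named by the genes on either side, with several sites in 1 gap numbered from the Hox13 end). The site after Hox9 has the highest value of its cluster in both pools, from 325 to 395 in pool I and from 187 to 278 in pool J.

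A motif match within 50 bp, at a score that 1% of flanking windows passed on either strand, was found at 17 of 22 sites (77.3%; exact Clopper-Pearson 95% interval 54.6 to 92.2%, for counting of sites only), beside 68.4% of all conservative summits. Of these 17 motifs, 11 were on the Hox strand and 6 on the other. Hoxa had 3 and 1, Hoxb 2 and 4, Hoxc 3 and 0 and Hoxd 3 and 1. Pooled over the clusters, the strand differed between the sides of Hox9. On the Hox1 side of the Hox9 coding sequence, within the clusters, 8 of 9 motifs were on the Hox strand, and on the Hox13 side 3 of 8. The 3 on the Hox13 side were at Hoxa10, at Hoxc10 and between Hoxd11 and Hoxd10. The 5 against the Hox genes on that side came mostly from a single gap, Hoxb13 to Hoxb9, with its sites 1, 2 and 4. The others were between Hoxa13 and Hoxa11 and between Hoxd13 and Hoxd12. This split was also chosen after the strands had been seen. Of 13 neighbouring pairs of motifs inside a cluster, 8 had the same strand, 4 pointed away from each other and 1, Hoxb9 to Hoxb8 with Hoxb7 to Hoxb6, pointed towards each other. Such neighbours were 8.55 to 36.4 kb apart, with a median of 17.2 kb.

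The scores of the Hox motifs were moderate. They ran from 11.0 to 18.7 bits of a possible 29.5, and 0 of 22 sites passed the stricter score that 0.1% of flanking windows reached, beside 16.3% of all conservative summits. The median best score was nearly equal, 13.2 bits at the 22 sites beside 13.4 over all conservative summits, with or without a match. The site after Hoxa9, with the strongest signal, had a motif of 13.5 bits, and the best score, 18.7 bits, was at the second Hoxb13 to Hoxb9 site. The sequence around the sites was rich in CpG. In 201 bp around the summit the median was 9 CpG dinucleotides, at 0.700 of the number expected from base composition, beside 2 and 0.217 over all conservative summits. The fewest CpG at any of the 22 sites was 5, a number reached by 24.2% of all conservative summits. That cutoff was taken from the 22 sites themselves, so all of them reach it by construction. The median GC content was 55.0% beside 47.8%. Sequence masked as repeats was absent in 9 of 22 windows (40.9%), beside 36.3% of all.

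Motif matches without a reproducible peak were also present. The clusters held 47 matches in all, 17 at a conservative summit and 29 at no summit of the 4 lists. Matches at conservative summits had a median score of 14.1 bits and those at none a median of 11.5 bits. On the Hox strand were 11 of 17 of the first and 9 of 29 of the second. The 2 best matches of all 4 clusters were among those without a conservative peak, and both are shown with 5 bases on each side.
Hoxb13 to Hoxb9, chr11:96223998-96224027, minus strand: ccacaGAGGCCAGAAGAGGGCGCCAttttt
Hoxb3, coding exon, chr11:96346186-96346215, minus strand: agggaGGGGCCGGCAGGGGGCGGCAgcgga

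The first of these scored 22.9 bits and lay under a weak summit with a signal of 35.8 in pool I (percentile 23.5) and 22.7 in pool J (percentile 15.9), absent from the conservative and optimal lists. All 20 bases of this match were masked as repeats, whereas 0 of the 17 matches at conservative summits were wholly masked. The second scored 22.8 bits, lay in the part of Hoxb without summits and had a ranked pool I peak with a signal of 16.2, below the threshold, and none in pool J. In these 2 cases the motif score and the signal thus went opposite ways.

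The other 5 sites inside the clusters that were not conservative had no motif match. Between Hoxb8 and Hoxb7 a site had a signal of 65.3 in pool I, 18.6 in pool J and 78.5 in the optimal list. The remaining 4 were all in Hoxd and passed the threshold in pool I but not in pool J. One lay 135 bp from the start of Hoxd10, with 22.3 in pool I, and the next inside the Hoxd10 coding sequence, with 59.6. The latter was also in the optimal list, with 77.1. Another lay 38 bp from the start of Hoxd9, with 35.3, and the last between Hoxd8 and Hoxd4, with 13.7, the lowest inside any cluster. At the Hoxd10 pair the ranked list of pool J held peaks of 12.4 and 17.0, below the threshold. With these sites, 7 of 39 Hox genes (17.9%) had a promoter summit in pool I, beside 37.4% of protein-coding genes in that list.

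Around the clusters the flanks differed from side to side. Evx1 and Evx2, homeobox genes next to Hoxa13 and Hoxd13, had no summit within 1000 bp of a start, and the nearest conservative summits were 7434 and 2453 bp away. Between Evx1 and Hoxa13 there were 2 conservative sites, with signals of 505 (percentile 83.7) and 370 (percentile 63.8) and no motif match. Between Evx2 and Hoxd13 there were also 2, with signals of 445 (percentile 74.5) and 293 (percentile 53.4), likewise with no motif match. The Hox13 side of these 2 clusters thus had CTCF between the Hox genes and Evx, whereas their Hox1 side held 0 conservative sites within 100 kb.

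On the Hox13 side of Hoxb the 2 strongest sites had signals of 513 (percentile 84.8), between Calcoco2 and Ttll6, and 431 (percentile 72.4), within Ttll6, which encodes a tubulin polyglutamylase. On its Hox1 side both conservative sites lay between Hoxb1 and Skap1, with 492 (percentile 81.5) and 313 (percentile 56.2). The Hox13 side of Hoxc held 0, and on its Hox1 side the 2 strongest lay between Hoxc4 and Smug1, with 373 (percentile 64.2) and 182 (percentile 34.8). A further site there, with 91.0 (percentile 6.01), was the only conservative site of the windows that was not in the pool J list.

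The limits of the rule fell as follows. The conservative site just inside the window was 94.1 kb from Hoxc, with a signal of 373, and the first one outside was 101 kb from Hoxb, with 527. Inside the clusters the lowest score that passed the reproducibility threshold was 600 in pool I and 662 in pool J, and the highest that did not was 467 and 399, on a scale on which the threshold is 540.

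Genes that work with or on Hox genes were read in the same way at their promoters. Of 9 genes of the TALE homeodomain cofactors, which bind DNA together with Hox proteins, 2 had a conservative summit within 1000 bp of a start, Pknox2 (percentile 57.5) and Meis3 (percentile 49.9). Of 6 ParaHox and Cdx genes, evolutionary sisters of the Hox genes, 0 had one. Of 15 Polycomb and trithorax regulators, which silence Hox genes or keep them active, 5 had one, with the strongest at Cbx2 (percentile 64.6). Beside the 20.8% of all protein-coding genes, these are counts only.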

How the data were processed

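CTCF peaks came from 4 libraries of left cerebral cortex, with 2 technical replicates from each of 2 pools. Per the notes deposited with the lists, the authors made peak lists on mm10 for each pool, for the peaks shared by both pools (conservative) and for their pooled reads (optimal), each thresholded by irreproducible discovery rate (IDR). The score in the deposited lists is a scaled IDR, with 540 for an IDR of 0.05, and the deposited ranked lists hold the same as −log10. The deposited signal of a peak is the peak caller's own value. Its unit was not stated, and it was used to rank peaks within a list. Aligner, peak caller, versions and control: not given in the sources used here. Inputs of the ranked list were assigned to pools by identical intervals (84.5% and 61.8%, with 0% crosswise).

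Percentiles are the share of a list's peaks with a lower signal. A 20 bp motif was trained on the 1000 strongest conservative peaks of odd-numbered autosomes, the Hox windows left out, and matched on both strands at 9.73 bits or more. Genes are from GENCODE M21 on GRCm38. The motif search and the counting were tested on simulated data. The naming rule took all 39 genes, every site inside a cluster, the 2 strongest conservative sites of each flank, Evx1, Evx2 and the 2 strongest promoters of the other gene lists. One item that this rule names is not reported here. Members, lists and some splits were chosen with earlier results of these data known. Alternatives were other lists, thresholds, windows and flanks. Tools were Python (3.11.15) with SciPy (1.17.1), numpy (2.4.6), pandas (2.3.3) and, for figures, matplotlib (3.10.9). Binomial intervals are exact, at 95%, and cover counting alone. The read depth of the libraries is unknown.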

Additional observations from a re-analysis of the deposited data

How the results depend on the processing

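Of 37 alternatives over 9 results, 34 stayed within the counting interval, the spread or 1.5 times the value. The density inside the clusters ran from 43.7 to 56.9 per Mb over the other lists, a stricter IDR of 0.01, merged sites and 10 kb wider clusters, and the density on the flanks from 17.5 to 26.2 per Mb. Gaps with a summit ran from 18 to 21. Hox promoters with a summit rose from 5 to 21 of 39 when the window was widened to 5000 bp, by construction. The share of sites with a motif fell to 50% with a search within 100 bp, which has its own higher score threshold, and to 0% at the score passed by 0.1% of flanking windows, so the strand share could not be taken there. No paired analysis was possible because the lists hold no value per library and the libraries share only technical replicate numbers. Leaving out a library was not run for the same reason, and the lists of each pool alone were used in its place. The lists carry no read counts, so depth limits cannot be stated. In 2 pools, no difference between pools could be tested.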
